A study of Mus musculus with 20 samples.

Results

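Mitochondria in the kidney tubule are kept up by making new ones, by fusing and dividing the existing network, and by removing damaged parts. The nuclear factor Nrf1 switches on genes such as Tfam, whose product packages and transcribes the mitochondrial genome (mtDNA), and the polymerase Polg copies mtDNA behind the helicase Twnk. Mfn1 and Mfn2 join the outer membranes of neighbouring mitochondria, Opa1 joins the inner membranes and shapes the cristae, and the dynamin-related GTPase Dnm1l pinches mitochondria apart. Pink1 is the kinase that marks damaged mitochondria for mitophagy, and Bnip3 is an outer-membrane mitophagy receptor that hypoxia can induce. These 10 genes were chosen by name for their roles, with earlier results of these data known. All 10, of 47069 genes in the count table, passed the filter on low counts that left 17622 genes for testing.

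The kidneys came from male 129SJ x C57Bl/6J mice that were 15 weeks old. The WT group (5 mice) was untreated, and the other groups all lacked Col4a3, the type IV collagen chain whose loss models Alport syndrome. From 5 weeks of age the Veh group (6 mice) received PBS subcutaneously each week, the Anti-miR-21 group (6 mice) lademirsen at 50 mg/kg by the same weekly route, and the ACEi group (3 mice) ramipril at 11 mg/L in drinking water. By the study's methods the ACEi group also had weekly subcutaneous PBS, so Veh and WT differ in genotype and in injection, whereas all Col4a3-/- groups were injected. The knockout was constitutive, so no cell type was singled out, and each library was 1 mouse. The comparisons ask how transcripts for mitochondrial maintenance differed in Alport kidneys and after each treatment.

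Each library held 28474301 to 29479629 counts. Col4a3 ran from 194 to 238 CPM (counts per library scaled to a common total, here after TMM, a scaling that centres most genes between libraries) in WT and from 27.9 to 74.9 CPM across the Col4a3-/- mice. The 6 proximal tubule markers summed to 11726 to 15086 CPM in WT, 1320 to 3671 CPM in Veh, 6431 to 10708 CPM in Anti-miR-21 and 6707 to 8783 CPM in ACEi, and all 6 fell in Veh. The 6 macrophage and 5 fibroblast markers were all higher in Veh than in WT, with sums of 817 to 998 CPM against 140 to 154 CPM for macrophages, and of 1504 to 1812 CPM against 111 to 258 CPM for fibroblasts. The extraction text in the labels names adipose tissue, whereas the 6 adipocyte markers summed to 2.07 to 183 CPM, far below the tubule markers, with Veh mouse A4 the highest, and 5 of them were higher in Veh. Of 5 markers each, 4 were lower and 1 higher for thick ascending limb and for distal tubule, 4 were lower for collecting duct, 4 higher for podocytes, 2 higher and 1 lower for endothelium, 5 higher for T cells and 3 higher for B and plasma cells in Veh against WT. All 6 erythroid markers were lower, and most adrenal and skeletal muscle markers were too low to test (3 and 4 of 5). Libraries came from 2 flow cells, 13 mice on A and 7 on B, with every group on both. In bulk kidney RNA, fewer cells of a type and less RNA per cell cannot be told apart, and the part of these marker shifts in the results below was not tested.

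The promoter sequences show what the 10 genes have in common next to their starts and what they do not. RefSeq windows of 300 bases (build GRCm38.p6), which run 250 bases upstream and 50 bases downstream of each annotated start, were at hand for all 10 genes, 15 windows in all. They were searched on both strands for TGCGCA, the core of the Nrf1 binding sequence and its own reverse complement; CCGGAAGT, a site of the GABP type; AAGGTCA, a core bound by oestrogen-related receptors; and ACGTG, the hypoxia-response core. The stretches below run from 130 bases before the start through its first 10 bases, 5′ to 3′ on the gene's strand, with matches in capitals, and are shown for 7 genes with a match.
Tfam, chr10:71238035-71238174, minus strand: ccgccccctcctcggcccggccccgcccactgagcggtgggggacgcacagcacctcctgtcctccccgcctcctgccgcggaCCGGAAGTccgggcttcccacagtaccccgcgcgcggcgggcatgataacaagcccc
Polg, chr7:79466264-79466403, minus strand: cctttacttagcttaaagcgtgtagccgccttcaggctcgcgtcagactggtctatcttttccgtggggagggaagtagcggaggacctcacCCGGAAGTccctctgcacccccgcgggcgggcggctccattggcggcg
Twnk, chr19:45006428-45006567, plus strand: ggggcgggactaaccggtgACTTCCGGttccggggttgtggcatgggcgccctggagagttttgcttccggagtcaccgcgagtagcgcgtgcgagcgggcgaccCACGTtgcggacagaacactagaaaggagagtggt
Mfn1, chr3:32529352-32529491, plus strand: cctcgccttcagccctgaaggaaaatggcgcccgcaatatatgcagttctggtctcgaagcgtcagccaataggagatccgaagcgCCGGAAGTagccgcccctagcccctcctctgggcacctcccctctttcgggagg
Opa1, chr16:29579204-29579343, plus strand: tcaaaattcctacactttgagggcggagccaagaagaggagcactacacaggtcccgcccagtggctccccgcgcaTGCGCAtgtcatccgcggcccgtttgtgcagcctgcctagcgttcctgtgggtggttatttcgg
Pink1, chr4:138326287-138326426, minus strand: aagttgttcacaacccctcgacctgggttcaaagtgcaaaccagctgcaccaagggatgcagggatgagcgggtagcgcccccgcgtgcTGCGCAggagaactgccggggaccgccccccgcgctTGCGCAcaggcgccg
Bnip3, chr7:138909497-138909636, minus strand: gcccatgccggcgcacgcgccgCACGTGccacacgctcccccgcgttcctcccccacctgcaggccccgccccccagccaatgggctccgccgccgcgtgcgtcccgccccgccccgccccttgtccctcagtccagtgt

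The GABP-type site lay in windows of Tfam, Polg, Twnk and Mfn1, 4 of 15 windows, and 3.89% of the 32851 promoter windows of all genes held it. The Nrf1 core lay once before Opa1 and 2 times at Pink1, and 7.76% of all windows held it. The hypoxia core, in 19.6% of all windows, lay in windows of Bnip3, Twnk and Mfn2, with both strands of 1 palindrome matched at Bnip3. The receptor core, in 4.72% of all windows, lay only in the upstream window of Twnk among the 15. No window of Nrf1 or Dnm1l held any of the 4. A match is a run of letters and was not tested as a binding site.

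Most of the 10 genes were lower in vehicle-treated Alport kidneys, and the largest falls were in Pink1 and Bnip3. At an adjusted p under 0.05 in edgeR's quasi-likelihood test, 8 of the 10 fell in Veh against WT and 1 rose, beside 34.0% of all genes tested called lower and 39.0% higher. The 3 fusion genes Opa1, Mfn1 and Mfn2 fell to about the same degree, whereas the fission gene Dnm1l averaged 92.3% of its WT level. Among the mtDNA genes Tfam and Twnk fell, and Polg was not called. The median log2 fold change of the 10 was −0.92, beside 0.07 over all genes tested. The direction of Dnm1l and Twnk depends on the scaling: library totals alone, which move the median of all genes in this comparison to 0.65, gave 6 lower and 3 higher calls, the higher being Nrf1, Polg and Dnm1l. Of all 17622 genes tested, those totals called 2684 lower and 11623 higher.

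**Figure D1:**
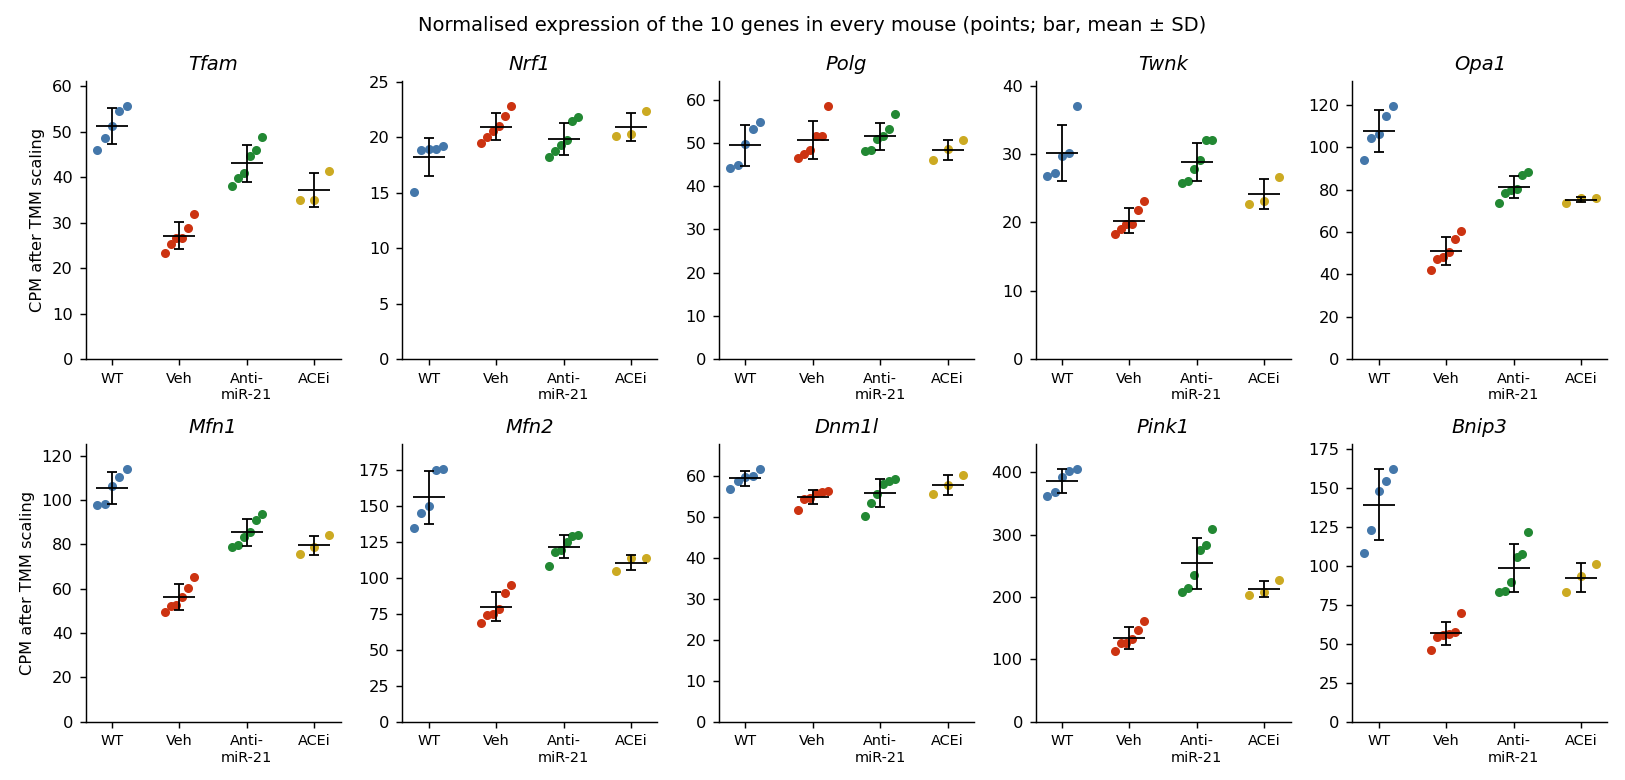
Normalised expression of each of the 10 genes (CPM after TMM scaling, linear axes from 0) in each mouse of the WT, Veh, Anti-miR-21 and ACEi groups; points are mice and bars show the mean ± SD. Opa1, Mfn1, Mfn2, Tfam, Pink1 and Bnip3 in every Veh mouse lay below every mouse of the other 3 groups, while Polg overlapped in all groups. Under library totals alone Dnm1l is higher, not lower, in Veh than in WT.

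Tfam, the packaging and transcription factor of mtDNA (chr10:71225464-71238280, GRCm38, minus strand), had 46.0, 48.7, 51.2, 54.7 and 55.6 CPM in the 5 WT mice, and in Veh it ran from 23.4 through a median of 26.6 to 31.9 CPM. Anti-miR-21 mice ran from 38.1 through 42.7 to 48.9 CPM, and the 3 ACEi mice had 34.9, 35.0 and 41.4 CPM. No Veh mouse reached the lowest mouse of any other group, while the Anti-miR-21 range overlapped both WT and ACEi. The log2 fold change of Veh against WT was −0.92 (standard error 0.08, edgeR adjusted p = 3.45e-09), a level 1.89-fold lower. It was 0.67 for Anti-miR-21 against Veh (standard error 0.08, edgeR adjusted p = 6.64e-07) and 0.45 for ACEi against Veh (standard error 0.10, edgeR adjusted p = 0.000898).

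Nrf1, the nuclear factor upstream of Tfam (chr6:30047988-30153458, plus strand), went the other way by a small step. WT mice had 15.1, 18.9, 18.9, 18.96 and 19.2 CPM and Veh mice ran from 19.5 through 20.8 to 22.8 CPM, so the groups did not overlap, and 4 of the 5 WT mice lay close together. The log2 fold change was 0.20 (standard error 0.07, edgeR adjusted p = 0.0137), and without WT mouse A18, the lowest, it was 0.14 with an adjusted p of 0.0519. Anti-miR-21 ran from 18.2 through 19.5 to 21.8 CPM and ACEi had 20.1, 20.3 and 22.4 CPM, both overlapping Veh, and neither treatment was called against Veh (edgeR adjusted p = 0.331 and 0.987).

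The gene for the mtDNA polymerase, Polg (chr7:79446231-79466362, minus strand), was level across the 4 groups. WT mice had 44.2, 45.0, 49.7, 53.2 and 55.0 CPM, Veh ran from 46.5 through 50.0 to 58.5 CPM, Anti-miR-21 from 48.2 through 51.3 to 56.7 CPM, and ACEi mice had 46.0, 48.5 and 50.7 CPM. All groups overlapped, and in none of the 6 comparisons was Polg called with TMM scaling. The log2 fold change of Veh against WT was 0.04 (standard error 0.07, edgeR adjusted p = 0.642), but 0.62 with library totals alone, where it was called higher. Polg shares 4034 bases with Fanci on the opposite strand, which averaged 45.4 counts per library against 1477 for Polg.

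Twnk, the helicase that opens mtDNA for Polg (chr19:45005663-45012762, plus strand), fell in Veh although Polg did not. WT mice had 26.9, 27.2, 29.7, 30.2 and 37.0 CPM and Veh mice ran from 18.3 through 19.8 to 23.1 CPM, with no overlap. Anti-miR-21 ran from 25.8 through 28.5 to 32.1 CPM, above every Veh mouse, while ACEi mice at 22.7, 23.1 and 26.6 CPM overlapped Veh. The log2 fold change was −0.57 for Veh against WT (standard error 0.09, edgeR adjusted p = 6.08e-06) and 0.51 for Anti-miR-21 against Veh (standard error 0.08, edgeR adjusted p = 3.34e-05). For ACEi against Veh it was 0.25 (standard error 0.10) and missed the threshold at an edgeR adjusted p of 0.056, which fell below it without A1, A3, A16, A19 or A20, to 0.0164 without A19. The Veh change was 0.02 with library totals alone, the opposite sign and not called. Twnk overlaps Mrpl43 on the opposite strand over 780 bases, and Mrpl43 averaged 1364 counts per library against 741 for Twnk. Whether the counting used strand is not given in the sources used here, so the 2 genes may share reads.

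The 3 fusion genes moved together. Opa1 (chr16:29579334-29654884, plus strand), which fuses inner membranes, had 94.0, 104, 106, 115 and 119 CPM in WT and ran from 42.2 through 49.3 to 60.4 CPM in Veh. Anti-miR-21 mice ran from 73.8 through 80.1 to 88.2 CPM and ACEi mice had 73.8, 75.9 and 76.3 CPM. Both treated groups lay in the gap between Veh and WT and overlapped neither. The log2 fold changes were −1.08 for Veh against WT (standard error 0.08, edgeR adjusted p = 2.88e-10), 0.68 for Anti-miR-21 against Veh (standard error 0.08, edgeR adjusted p = 4.66e-07) and 0.57 for ACEi against Veh (standard error 0.09, edgeR adjusted p = 0.000102).

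Mfn1 (chr3:32529465-32579239, plus strand) had 97.9, 98.4, 107, 110 and 114 CPM in WT and ran from 49.5 through 54.5 to 65.3 CPM in Veh. Mfn2 (chr4:147873599-147904704, minus strand) had 134, 145, 150, 175 and 175 CPM in WT and ran from 68.2 through 76.3 to 94.9 CPM in Veh. In both mitofusins no Veh mouse came near WT, and the highest Veh mouse was A16, as it was for Opa1, Tfam, Pink1 and Bnip3. Treated mice stood between: for Mfn1, Anti-miR-21 ran from 78.9 through 84.4 to 93.7 CPM and ACEi mice had 75.7, 79.0 and 84.2 CPM. For Mfn2, Anti-miR-21 ran from 108 through 122 to 129 CPM and ACEi mice had 104, 113 and 114 CPM. The Veh log2 fold changes were −0.91 for Mfn1 (standard error 0.07, edgeR adjusted p = 5.34e-10) and −0.96 for Mfn2 (standard error 0.09, edgeR adjusted p = 3.68e-09). Both rose by 0.61 under Anti-miR-21 against Veh (edgeR adjusted p = 3.83e-07 for Mfn1 and 3.93e-06 for Mfn2). Under ACEi, Mfn1 rose by 0.51 and Mfn2 by 0.47 (edgeR adjusted p = 9.21e-05 and 0.00103).

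Dnm1l, the fission GTPase (chr16:16312230-16358959, minus strand), had 57.0, 58.9, 60.0, 60.1 and 61.8 CPM in WT and ran from 51.9 through 55.3 to 56.5 CPM in Veh. The groups did not overlap, yet the gap between the highest Veh and the lowest WT mouse was under 1 CPM. The log2 fold change was −0.12 (standard error 0.05, edgeR adjusted p = 0.0372), and with library totals alone it was 0.47, called higher. Leaving out any one of A3, A17, A18, A1, A9 or A19 took the adjusted p of the TMM fit past the threshold, up to 0.0908 without A9. Anti-miR-21 ran from 50.4 through 56.9 to 59.3 CPM and ACEi mice had 55.6, 57.9 and 60.4 CPM. Treated mice overlapped Veh and WT, with log2 fold changes against Veh of 0.03 and 0.08 that were not called (edgeR adjusted p = 0.643 and 0.293). Antisense Gm49521, which overlaps Dnm1l, was not analysed here.

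Pink1 (chr4:138313409-138326307, minus strand), the mitophagy kinase, had the largest change of the 10. WT mice had 363, 368, 392, 401 and 405 CPM and Veh ran from 113 through 129 to 162 CPM, 2.87-fold lower (log2 fold change −1.52, standard error 0.10, edgeR adjusted p = 7.9e-11). Anti-miR-21 ran from 208.03 through 255 to 309 CPM and ACEi mice had 203.9, 207.4 and 226.7 CPM, so the Anti-miR-21 mice A2, A12, A15 and A22 lay above all ACEi mice and the other 2 did not. Pink1 rose by 0.92 under Anti-miR-21 (standard error 0.10, edgeR adjusted p = 2.08e-07) and by 0.66 under ACEi (standard error 0.12, edgeR adjusted p = 0.000193) against Veh, and no treated mouse reached the lowest WT mouse.

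Bnip3 (chr7:138890836-138909519, minus strand), the mitophagy receptor, had 108, 123, 148, 154 and 162 CPM in WT and ran from 46.3 through 56.2 to 69.7 CPM in Veh. Anti-miR-21 ran from 83.4 through 97.8 to 122 CPM and ACEi mice had 83.04, 93.4 and 101.3 CPM. Veh stood apart from all other groups, while Anti-miR-21 reached into the WT range. The log2 fold change was −1.30 for Veh against WT (standard error 0.12, edgeR adjusted p = 5.34e-09), 0.80 for Anti-miR-21 against Veh (standard error 0.11, edgeR adjusted p = 6.67e-06) and 0.71 for ACEi against Veh (standard error 0.14, edgeR adjusted p = 0.000453). Antisense Gm45507 and the pseudogene Gm18258 lie within the Bnip3 locus and were not analysed here.

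Counted over the list, 9 of 10 genes did not overlap between Veh and WT, 8 of them lower in Veh, where 26.1% of all genes tested lay wholly lower. Against Veh, 7 of the 10 rose under Anti-miR-21 (28.8% of all genes tested rose and 30.5% fell) and 6 rose under ACEi (21.0% of all rose and 19.1% fell). None fell under either treatment with TMM scaling. The same numbers, 7 under Anti-miR-21 and 6 under ACEi, lay wholly above Veh, beside 18.6% and 19.8% of all genes tested. The 2 comparisons share the Veh mice, so their values are given side by side and not set against each other. Library totals alone gave 6 higher and 3 lower calls under Anti-miR-21, and for ACEi 5 higher and 3 lower, with Nrf1, Polg and Dnm1l lower in both. Falls made up most calls over the 17622 tested genes with that scaling. Anti-miR-21 against Veh had 9861 falls beside 2459 rises, while ACEi against Veh had 7389 falls beside 1907 rises. With library totals alone Mfn2 in ACEi against Veh was 0.20 with an edgeR adjusted p of 0.0723. On the log2 CPM path from Veh (0%) to WT (100%), with TMM scaling, the 7 genes that rose under Anti-miR-21 stood at 59.8% for Pink1 to 88.9% for Twnk, and the 6 that rose under ACEi at 43.9% for Pink1 to 55.9% for Mfn1. The 2 ranges differ in genes: Twnk, not called under ACEi, stood at 44.2% there. Over the 6 genes that rose under both, Anti-miR-21 ran from 59.8% for Pink1 to 72.5% for Tfam.

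**Figure D2:**
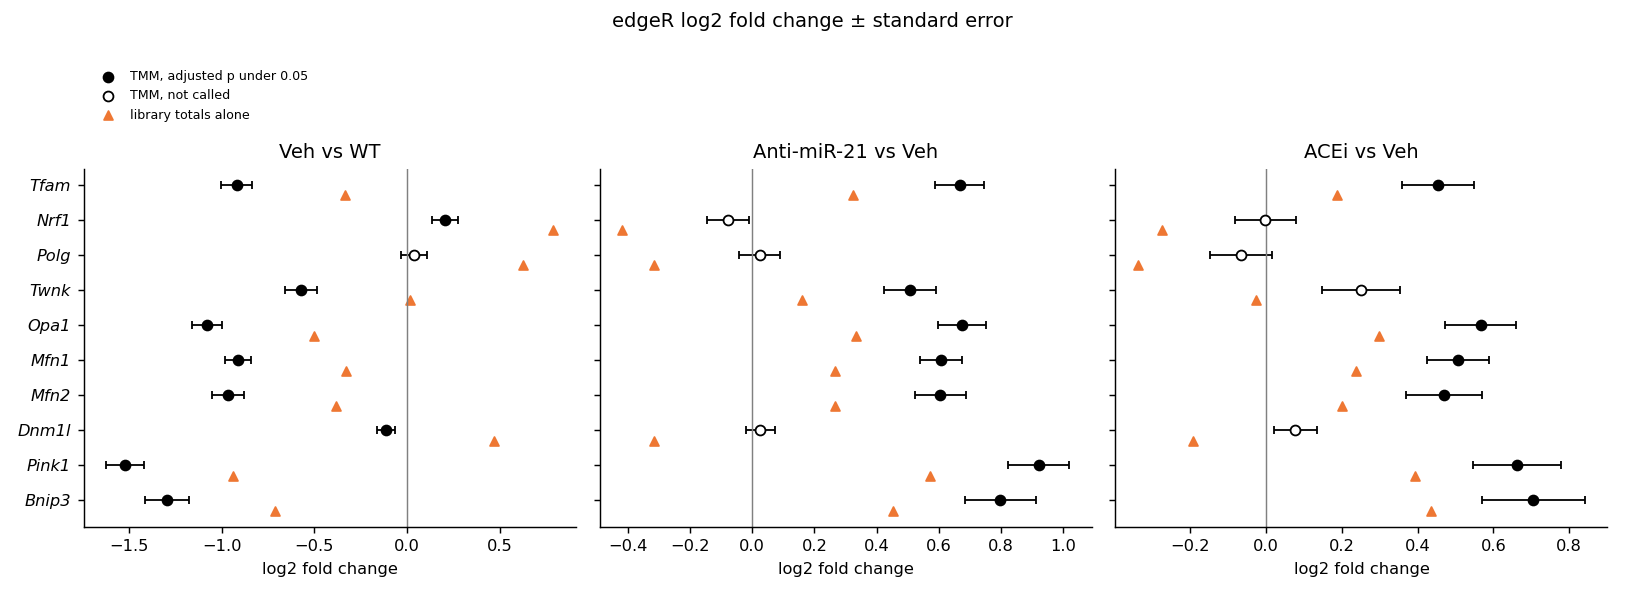
edgeR log2 fold change ± standard error for the 10 genes in 3 comparisons; circles are TMM scaling, filled at an adjusted p under 0.05, and triangles are library totals alone. Tfam, Opa1, Mfn1, Mfn2, Pink1 and Bnip3 keep their side of 0 under both scalings, whereas Dnm1l changes side in all 3 comparisons and Polg and Twnk in some.

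The called genes kept their direction within each flow cell in Veh against WT and in each treatment against Veh. The genes Tfam, Twnk, Opa1, Mfn1, Mfn2, Pink1 and Bnip3 differed between Veh and WT by −1.65 to −0.63 in mean log2 CPM among flow cell A mice (4 and 3) and by −1.30 to −0.46 among flow cell B mice (2 and 2). Nrf1 differed by 0.17 and 0.25, Dnm1l by −0.11 and −0.12 and Polg by 0.01 and 0.08. The 7 genes differed between Anti-miR-21 and Veh by 0.52 to 1.07 for A and 0.36 to 0.48 for B, which held 1 Anti-miR-21 mouse. Between ACEi and Veh the 6 called genes differed by 0.50 to 0.81 for A, which held 1 ACEi mouse, and 0.20 to 0.53 for B. A16, the Veh mouse that was highest for 6 of the genes, was sequenced on flow cell B and also had the highest proximal tubule sum of the Veh group, 3671 CPM. A fit with flow cell as a term called 9 genes in Veh against WT, 7 under Anti-miR-21 and 6 under ACEi, while flow cell A alone called 7 in Veh against WT, without Nrf1 and Dnm1l, and 7 under Anti-miR-21.

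Neither treatment was separable from the other gene by gene. In Anti-miR-21 against ACEi, edgeR called 0 of the 10, beside 0.584% of all genes tested, and DESeq2 also called 0. Tfam, Twnk and Pink1 had an unadjusted edgeR p under 0.05. The share of all genes below that unadjusted threshold was not counted, and the 0.584% is for adjusted p. Their log2 fold changes were 0.21, 0.26 and 0.26, each higher under Anti-miR-21, and 3 ACEi mice limit the precision. Against WT, 6 genes stayed lower under Anti-miR-21 (19.8% of all genes tested were lower) and 7 under ACEi (22.5% of all were lower). Library totals alone gave 2 lower and 3 higher calls against WT under each treatment. Of all 17622 genes tested, those totals called 998 lower and 7719 higher under Anti-miR-21, and 1345 lower and 8006 higher under ACEi. Pink1 was furthest below WT in both, by 0.60 under Anti-miR-21 (standard error 0.10, edgeR adjusted p = 9.33e-05) and by 0.86 under ACEi (standard error 0.13, edgeR adjusted p = 1.72e-05). Twnk was the gene called under ACEi and not under Anti-miR-21: it was lower than WT by 0.32 under ACEi (edgeR adjusted p = 0.0172, and 0.0545, 0.0786 and 0.0899 without A3, A11 or A23) and had a log2 fold change of −0.07 under Anti-miR-21 (edgeR adjusted p = 0.562). The Tfam call under Anti-miR-21, −0.25, was lost without A3 (edgeR adjusted p = 0.0525). Nrf1 stood 0.20 above WT under ACEi (edgeR adjusted p = 0.0553), a difference called without A17 or without any one of the 6 Veh mice (edgeR adjusted p from 0.0274 to 0.0498).

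Ratios of 2 genes within the same library do not depend on the scaling between libraries, and they were tested with two-sided exact permutation tests over mice, 6 ratios in 6 comparisons with Benjamini-Hochberg adjustment over the 36. Opa1 to Dnm1l sets 1 inner-membrane fusion gene against 1 fission gene. With TMM scaling, 8 of 10 other fission genes tested were lower in Veh, beside 34.0% of all genes tested. Library totals alone called 3 of them lower and 5 higher. The Opa1 to Dnm1l ratio of counts had a geometric mean of 1.80 in WT (1.56 to 2.03), 0.920 in Veh (0.771 to 1.08), 1.45 in Anti-miR-21 (1.38 to 1.5) and 1.30 in ACEi (1.22 to 1.37). No 2 groups overlapped. Counts of Opa1 outnumbered those of Dnm1l in all mice but 4 Veh mice, a count that also reflects transcript length. The mean log2 ratio was 0.85 ± 0.15 (SD, n = 5) in WT and −0.12 ± 0.17 (SD, n = 6) in Veh, and the difference was −0.97 (exact permutation p = 0.00216, adjusted 0.00866). That p is the smallest the design can give. The ratio was higher by 0.66 in Anti-miR-21 than in Veh (exact permutation p = 0.00216, adjusted 0.00866) and by 0.50 in ACEi than in Veh (exact permutation p = 0.0119, adjusted 0.0286).

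**Figure D3:**
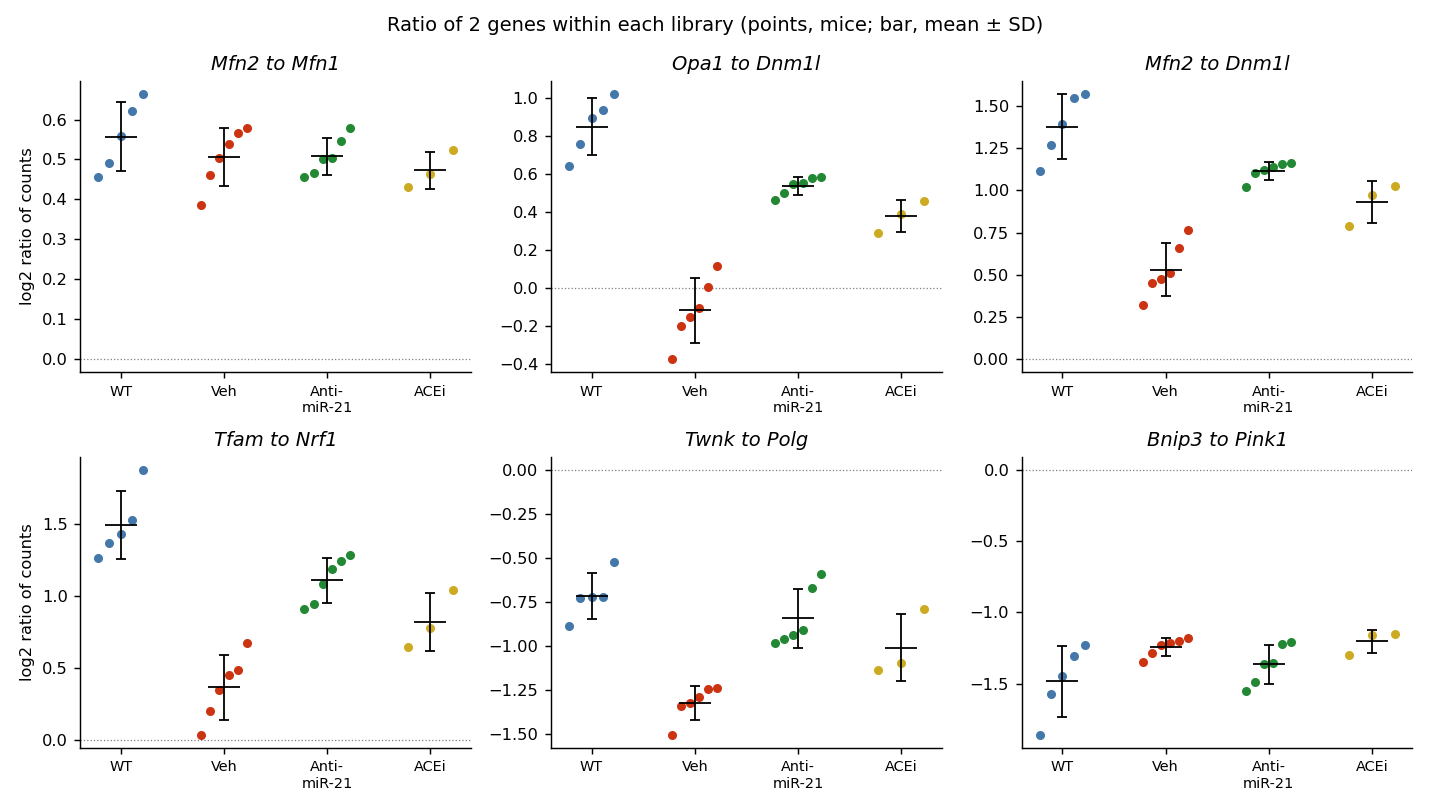
Log2 ratio of the counts of 2 genes within each library for the 4 groups; points are mice and bars the mean ± SD, and the dotted line marks equal counts. Opa1 to Dnm1l, Mfn2 to Dnm1l, Tfam to Nrf1 and Twnk to Polg are lowest in Veh, and Mfn2 to Mfn1 is level, with group means of 0.47 to 0.56.

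Opa1 to Dnm1l also separated the treatments: on the log2 scale it was 0.54 ± 0.05 in the 6 Anti-miR-21 mice and 0.38 ± 0.08 in the 3 ACEi mice (SD), a difference of 0.16 (exact permutation p = 0.0119, adjusted 0.0286). The groups barely parted. The lowest Anti-miR-21 mouse, A10, had 0.47 and the highest ACEi mouse, A13, 0.46, and both were on flow cell B, where A11 of the ACEi group had 0.39. Mfn2 to Dnm1l followed the same course, with geometric means of 2.60 in WT, 1.44 in Veh, 2.17 in Anti-miR-21 and 1.91 in ACEi. Its log2 difference was −0.85 for Veh against WT (exact permutation p = 0.00216, adjusted 0.00866), 0.59 for Anti-miR-21 against Veh (exact permutation p = 0.00216, adjusted 0.00866) and 0.40 for ACEi against Veh (exact permutation p = 0.0119, adjusted 0.0286). Between Anti-miR-21 and ACEi it was 0.19 (exact permutation p = 0.0238, adjusted 0.0451), and here the groups overlapped.

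The 2 mitofusins kept their proportion. Mfn2 to Mfn1 averaged 1.47 in WT, 1.42 in Veh, 1.42 in Anti-miR-21 and 1.39 in ACEi, all groups overlapped, and the difference of Veh from WT was −0.05 on the log2 scale (exact permutation p = 0.320, adjusted 0.36), smaller than the SD of either group, 0.09 and 0.07. Tfam fell relative to its upstream factor: Tfam to Nrf1 averaged 2.82 in WT, 1.29 in Veh, 2.16 in Anti-miR-21 and 1.77 in ACEi. The log2 difference of Veh from WT was −1.13 (exact permutation p = 0.00216, adjusted 0.00866) and that of Anti-miR-21 from Veh 0.75 (exact permutation p = 0.00216, adjusted 0.00866), while ACEi differed from Veh by 0.46 with an adjusted p of 0.0584 (exact permutation). Twnk to Polg, helicase to polymerase, averaged 0.609 in WT and 0.400 in Veh, a log2 difference of −0.61 (exact permutation p = 0.00216, adjusted 0.00866), and 0.558 in Anti-miR-21 and 0.497 in ACEi. Any reads that Twnk shares with Mrpl43, as given above, would also enter this ratio. Bnip3 to Pink1 was the 1 ratio of the 6 that was higher in Veh than in WT, by 0.24 (exact permutation p = 0.0195, adjusted 0.0390), with the groups overlapping.

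Levels between genes were compared per transcript length, in the FPKM that the authors deposited, within each group. In WT the order was Pink1 (mean 134 FPKM), Bnip3 (65.3), Mfn2 (28.7), Mfn1 (27.99), Dnm1l (15.2), Opa1 (15.0), Tfam (10.7), Twnk (10.1), Polg (7.96) and Nrf1 (4.23). Mfn2 overlapped Mfn1, Dnm1l overlapped Opa1, Tfam overlapped Twnk and Twnk overlapped Polg, while the other neighbours stood apart. In Veh the mean of Pink1 was 70.2 FPKM and that of Bnip3 40.1 FPKM, still the highest. Mfn2 at 22.2, Mfn1 at 21.8 and Dnm1l at 21.7 FPKM formed a run in which neighbours overlapped. Opa1, at 10.7 FPKM, lay below Polg at 11.8 and Twnk at 10.9 FPKM, and its range overlapped those of Twnk and Tfam, its neighbours in the order.

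In every group the order from CPM per kilobase of annotated exon also began with Pink1 and Bnip3 and ended with Nrf1. Between these it differed from the FPKM order. It put Opa1 (13.7 CPM per kilobase) above Tfam (11.5) and Dnm1l (11.4) in WT. For Veh it put Opa1 (6.46 CPM per kilobase) above Twnk (5.05) and Polg (4.72), the reverse of the FPKM order of these genes. The authors marked the FPKM entries of Twnk, Polg and Pink1 as confounded. In the treated groups the FPKM order again began with Pink1 and Bnip3 and ended with Polg and Nrf1.

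**Figure D4:**
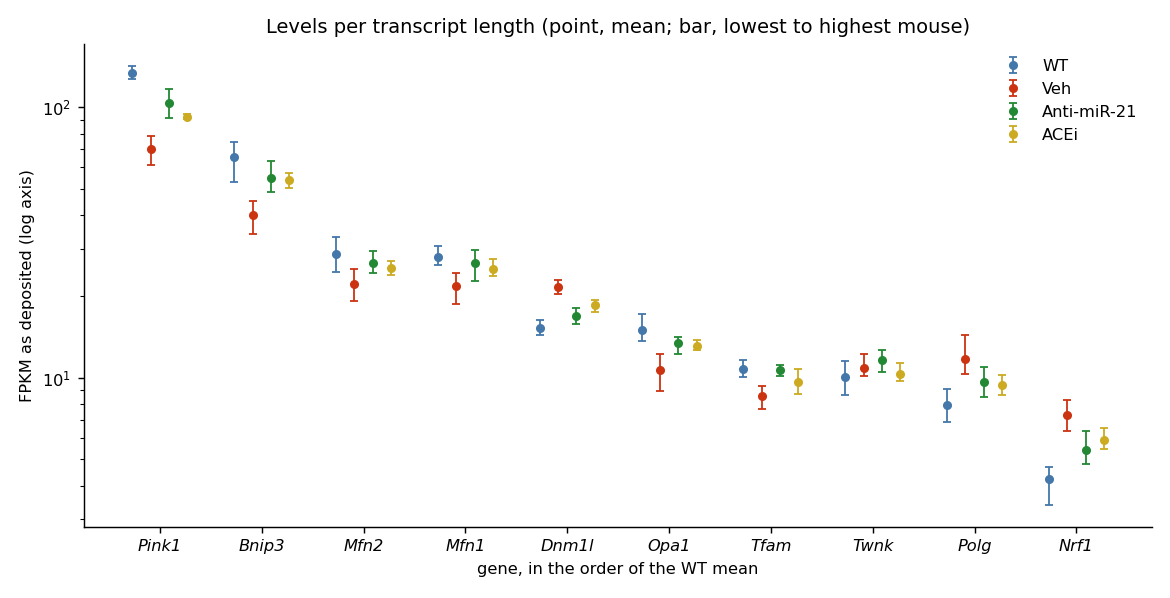
FPKM as deposited (log axis) of the 10 genes, ordered by the WT mean; points are group means and bars run from the lowest to the highest mouse. Pink1 and Bnip3 are highest in each group, and Nrf1 is lowest, from 4.23 FPKM in WT to 7.31 FPKM in Veh; FPKM are scaled to library totals, which raises Veh levels relative to TMM, so Dnm1l, Twnk, Polg and Nrf1 are higher in Veh than in WT here.

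The 6 further lists, without the 10, hold other genes of these processes. Beside each list, with TMM scaling, 34.0% of all genes tested were lower and 39.0% higher in Veh than in WT. Against Veh, 28.8% of all genes rose and 30.5% fell under Anti-miR-21, and 21.0% rose and 19.1% fell under ACEi. All 19 genes of fusion and cristae shape fell in Veh against WT (median log2 fold change −0.92), all 19 rose under Anti-miR-21 (median 0.58) and 16 rose under ACEi (median 0.45). Under library totals alone the numbers called were 11 lower in Veh, 11 higher under Anti-miR-21 and 9 higher under ACEi, and 0 went the opposite way. The largest falls were in Apoo, a subunit of the MICOS complex that holds crista junctions, from 91.3 ± 6.79 to 29.7 ± 6.63 CPM (SD, n = 5 and 6; log2 fold change −1.62, edgeR adjusted p = 1.56e-09), and Immt, its core subunit (−1.37, edgeR adjusted p = 2.72e-10). Oma1, the protease that cleaves Opa1 under stress, fell by 0.58 (edgeR adjusted p = 6.85e-07).

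Fission genes were mostly lower with TMM scaling. Of 10 tested, 8 were lower and 2 higher in Veh (median −0.44), beside 34.0% and 39.0% of all genes tested. Against Veh, 7 rose and 2 fell under Anti-miR-21, and 6 rose and 1 fell under ACEi. The outer-membrane receptors that recruit Dnm1l fell by small steps: Mff by 0.35 (98.7 ± 2.34 to 77.5 ± 3.65 CPM, edgeR adjusted p = 8.6e-07) and Fis1 by 0.41 (edgeR adjusted p = 0.000228). Mtfr1 and Mtfp1 fell most, by 1.69 and 1.48 (edgeR adjusted p = 6.65e-11 and 3.88e-10). Inf2, the formin that drives actin at fission sites, rose from 8.97 ± 1.43 to 43.5 ± 6.25 CPM (log2 fold change 2.28, edgeR adjusted p = 8.8e-12). Mtfr2 rose by 2.02 (edgeR adjusted p = 9.73e-07) from 0.297 CPM, a low level. With at least 10 counts required in every mouse, 9 genes of this list were tested in Veh against WT, with 1 higher and 8 lower. The fission list under library totals alone had 5 higher and 3 lower calls in Veh against WT, 3 higher with 4 lower under Anti-miR-21 and 3 each way under ACEi. Its median was then 0.15 in Veh against WT, beside 0.65 over all genes tested. Against Veh it was −0.06 under Anti-miR-21, beside −0.38, and −0.07 under ACEi, beside −0.32.

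Regulators of biogenesis were mostly lower. In Veh 10 of 16 were lower and 4 higher (median −1.06), and against Veh 10 rose and 3 fell under Anti-miR-21 and 8 rose under ACEi. Ppargc1a, the coactivator that drives Nrf1 and Esrra programmes, fell from 41.0 ± 5.02 to 18.01 ± 4.03 CPM (log2 fold change −1.19, edgeR adjusted p = 8.98e-08) and rose by 0.90 under Anti-miR-21 (edgeR adjusted p = 6.32e-06) and by 0.46 under ACEi (edgeR adjusted p = 0.023). Its partner Esrra fell by 1.29 (edgeR adjusted p = 5.25e-10) and Ppara, the receptor for fatty acid oxidation genes, by 1.12 (edgeR adjusted p = 7.18e-05). The largest falls were in Perm1 at −2.28 and the deacetylase Sirt3 at −1.89 (edgeR adjusted p = 3.35e-09 and 1.28e-10). Pprc1, a relative of Ppargc1a, rose by 0.83 (edgeR adjusted p = 1.6e-07) and the GABP subunit Gabpb1 by 0.28 (edgeR adjusted p = 0.00148). For the list, library totals alone gave 7 higher and 9 lower calls in Veh against WT, 9 higher with 6 lower under Anti-miR-21 and 6 higher and 5 lower under ACEi. The list median was then −0.48 in Veh against WT, beside 0.65 over all genes tested. Against Veh it was 0.39 under Anti-miR-21, beside −0.38, and 0.03 under ACEi, beside −0.32.

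Among 23 genes of mtDNA maintenance and transcription, 15 were lower and 3 higher in Veh (median −0.51), 13 rose and 1 fell under Anti-miR-21, and 10 rose and 3 fell under ACEi. The mitochondrial RNA polymerase Polrmt fell by 0.78 (edgeR adjusted p = 2.18e-08) and the accessory polymerase subunit Polg2 by 0.40 (edgeR adjusted p = 0.000877), while its partner Polg was not called. Lonp1, the matrix protease that degrades Tfam, fell by 1.22 and the topoisomerase Top1mt by 1.04 (edgeR adjusted p = 1.33e-10 and 6.56e-10). Mterf4 rose by 0.55 and the nuclease Exog by 0.41 (edgeR adjusted p = 1.42e-05 and 0.00827). By library totals alone the calls of this list were 9 higher and 8 lower in Veh against WT, 5 higher with 6 lower under Anti-miR-21 and 4 higher and 7 lower under ACEi. Its median with those totals was 0.07 in Veh against WT, beside 0.65 over all genes tested. Against Veh it was −0.007 under Anti-miR-21, beside −0.38, and −0.07 under ACEi, beside −0.32. The 13 mRNAs made from mtDNA took 11.96% to 13.8% of counts in WT, 5.82% to 8.07% in Veh, 9.36% to 12.45% in Anti-miR-21 and 9.39% to 10.4% in ACEi, with Veh below every other group.

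Mitophagy genes other than Pink1 and Bnip3 also tended lower: 20 of 24 tested were lower and 1 higher in Veh (median −0.57), 18 rose under Anti-miR-21 and 13 under ACEi. The Atg8 family gene Gabarapl1 fell by 1.28 (edgeR adjusted p = 2.26e-09). Bnip3l, the paralogue of Bnip3, fell by 0.33 only (edgeR adjusted p = 7.94e-06). Map1lc3b, the autophagosome gene, rose by 0.17 (edgeR adjusted p = 0.0137). Scaled by library totals alone this list had 11 higher and 5 lower calls in Veh against WT. It had 5 higher with 10 lower under Anti-miR-21 and 3 higher and 5 lower under ACEi, so the direction of its calls rests on the scaling. With those totals its median was 0.01 in Veh against WT, beside 0.65 over all genes tested. Against Veh it was −0.01 under Anti-miR-21, beside −0.38, and −0.003 under ACEi, beside −0.32.

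Bnip3 is also known as a hypoxia-induced gene, and other such genes split. Of 17, 7 were higher and 7 lower in Veh (median 0.14), shares close to the 39.0% and 34.0% of all genes tested, and 6 rose and 6 fell under each treatment. Hk2 rose by 4.07 and Ddit4 by 1.36 (edgeR adjusted p = 2.13e-11 and 9.72e-05), whereas Car9 fell by 2.82 and Vegfa by 1.34 (edgeR adjusted p = 1.62e-09 and 1.17e-10). With library totals alone the list had 11 higher and 4 lower calls in Veh against WT, 4 higher with 10 lower under Anti-miR-21 and 3 higher and 10 lower under ACEi, and Bnip3 in Veh was still lower than in WT, at −0.71. The list median with those totals was 0.73 in Veh against WT, beside 0.65 over all genes tested. Against Veh it was −0.42 under each treatment, beside −0.38 under Anti-miR-21 and −0.32 under ACEi.

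**Figure D5:**
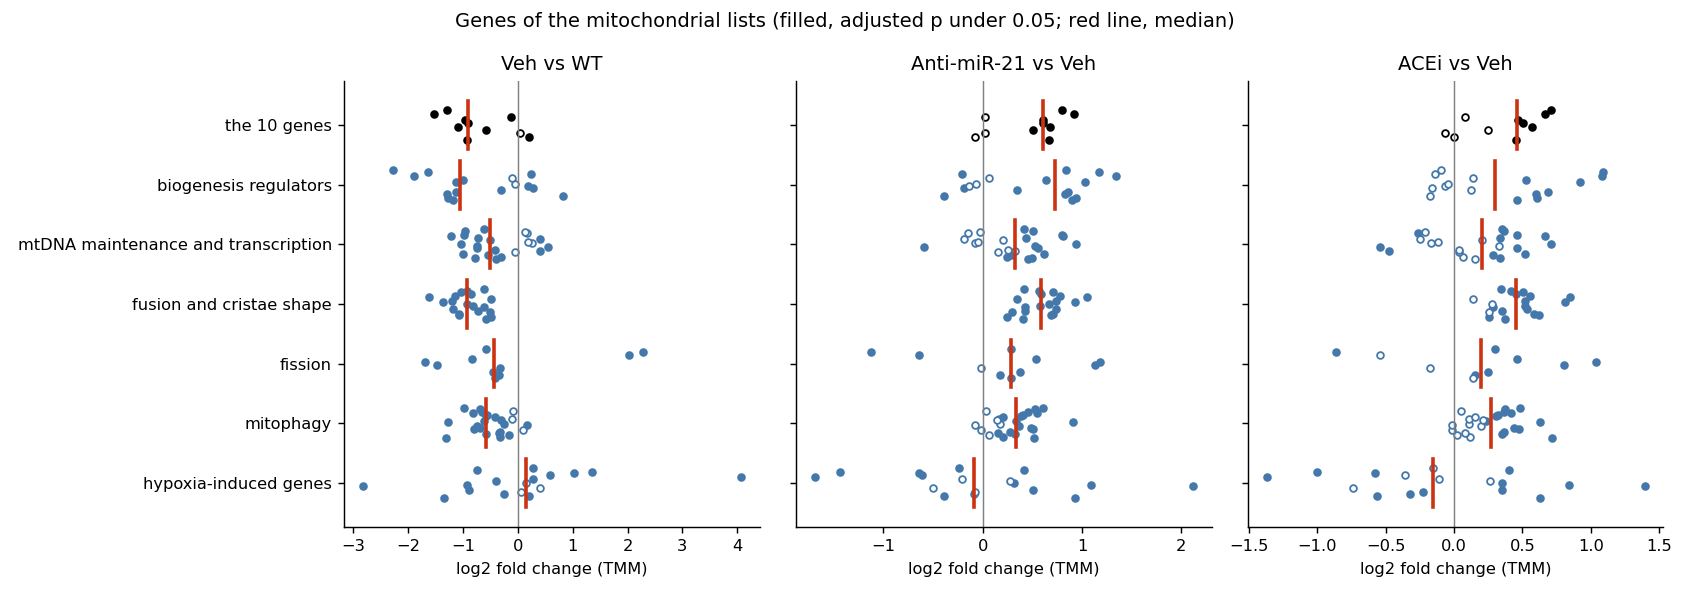
Log2 fold change (TMM scaling) of the 10 genes and of 6 lists of genes in 3 comparisons; each point is a gene, filled at an adjusted p under 0.05, and red lines are medians. The fusion and cristae list lies wholly below 0 in Veh against WT and wholly above 0 in both treatments, while the hypoxia list has members on both sides. Library totals alone move the medians of the mtDNA, fission and mitophagy lists in Veh against WT above 0, and that of all genes tested to 0.65.

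Likeness between genes was measured over the 20 mice as the root mean square difference of log2 CPM, each gene centred on its own mean. Among the 10, Mfn1 and Mfn2 were closest (0.07), then Opa1 and Mfn2 (0.07) and Opa1 and Mfn1 (0.09), and Nrf1 and Pink1 were furthest apart (0.68). Over all genes tested, the nearest to both mitofusins was 2610507B11Rik (0.05 from each), and the nearest to Opa1 was Afg3l2 (0.06), which encodes a subunit of an inner-membrane protease. Pmpca, a subunit of the mitochondrial processing peptidase, was nearest to Tfam (0.07), Auh to Pink1 (0.09) and the mtDNA-encoded mt-Co1 to Bnip3 (0.09). The nearest to the genes that changed little were Poldip3 for Nrf1 (0.07), Gtf3c2 for Polg (0.07) and Mon2 for Dnm1l (0.05), and Tmem186 was nearest to Twnk (0.10). All mice share the same 4 groups, so these distances describe the group pattern more than variation between single mice.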

How the data were processed

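Total kidney RNA was sequenced as paired reads, 1 library per mouse. The authors aligned the reads to GRCm38 in OmicSoft Studio and deposited estimated counts per gene, of which 29.1% of positive values were not whole, and FPKM; 3 FPKM columns of no listed sample were not used. The deposited library table gives ramipril as 4 mg/kg where the labels give 11 mg/L. Rows without a gene symbol held 0.0919% of counts. Estimated counts were rounded, low genes were dropped (filterByExpr, at a minimum count of 10 and a minimum total of 15), and TMM-scaled counts were fitted in edgeR 4.0.16 under R 4.3.3 by quasi-likelihood, with all 20 mice and 1 coefficient per group, and Benjamini-Hochberg adjustment at 0.05 over 17622 genes. The code was tested on simulated counts. CPM in the text are TMM-scaled; log2 CPM used a prior count of 2. Ratios used counts and exact permutation tests that enumerated every division of the mice, with the code checked against SciPy 1.17.1.

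The 10 genes and all lists were chosen with earlier results of these data known. All 10 were described in every comparison; from each of 6 other lists the text names the 2 genes that rose most and the 2 that fell most in Veh against WT, plus Ppargc1a, Esrra, Ppara, Polrmt, Polg2, Oma1, Fis1, Mff and Bnip3l, and for each of the 10 the gene nearest in pattern. A gene that this rule names is not reported here. The 14 marker lists were counted and summed. Alternatives were DESeq2 1.42.0, RLE and upper-quartile scaling, library totals alone, no filter, at least 10 counts in every mouse, flow cell as a term or flow cell A alone, only the groups compared, limma 3.58.1 on log2(FPKM + 1), log2(FPKM + 0.1) or a mean FPKM of at least 1, and each mouse left out; limma on FPKM divided by the TMM factors was chosen after seeing the data. Replicates were separate mice by label; whether littermates were used is not given per mouse.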

Additional observations from a re-analysis of the deposited data

Results flagged for a closer look

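Gaps within groups were examined for the 10 genes and 6 ratios in the WT, Veh and Anti-miR-21 groups, 48 sets of values, of which chance flags about 1 in 20. In 1 set a mouse stood far from the others: Nrf1 in WT mouse A18 was at 15.1 CPM, below 4 mice at 18.9 to 19.2 CPM, a gap of 0.932 of the group's range. A18 was sequenced on flow cell B, as was A17 at 19.2 CPM. Its effect on the Nrf1 call is given with that gene above.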

How the results depend on the processing

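With TMM or RLE scaling, DESeq2, either count filter, flow cell as a term or only the groups compared, the 10 genes gave 8 or 9 calls in Veh against WT, 7 in Anti-miR-21 against Veh and 6 or 7 in ACEi against Veh. A change of sign was counted where either fit made a call. Each sign change came with library totals alone or with the deposited FPKM, which carry the same totals. In Veh against WT, Dnm1l became 0.47 with library totals alone, 0.48 with log2(FPKM + 1) under both FPKM filters and 0.51 with log2(FPKM + 0.1), and Twnk became 0.016, 0.11 and 0.12. In Anti-miR-21 against Veh, in that order, Dnm1l was −0.32, −0.34 and −0.36 and Polg −0.32, −0.27 and −0.29; in ACEi against Veh, Dnm1l was −0.19, −0.22 and −0.23. Against WT, Dnm1l was 0.15, 0.14 and 0.15 under Anti-miR-21 and 0.27, 0.27 and 0.28 under ACEi, Twnk was 0.19 and 0.21 under Anti-miR-21 and 0.040 and 0.044 under ACEi by pseudocount, and Polg was 0.29 under ACEi with library totals alone. In ACEi against WT, 7 called genes became 3 with either FPKM pseudocount and 4 with the FPKM minimum. Calls in the fusion and cristae list became 11, 11 and 9 with library totals alone and 10, 9 and 7 with FPKM in Veh against WT, Anti-miR-21 against Veh and ACEi against Veh, mitophagy calls in ACEi against Veh 8 and 7, and fission calls in Veh against WT 6 with the FPKM minimum. FPKM fits held fewer genes of the fusion list, 17 or 16 of 19. Among ratios, flow cell A alone moved Opa1 to Dnm1l to −1.16 and Mfn2 to Dnm1l to −1.07 in Veh against WT. Ratios of FPKM lost the call of Opa1 to Dnm1l in ACEi against WT (−0.47), Mfn2 to Dnm1l in ACEi against Veh (0.43) and Anti-miR-21 against WT (−0.26), Twnk to Polg in ACEi against Veh (0.24) and Bnip3 to Pink1 in Veh against WT (0.24). The cause of these losses was not tested. Dnm1l in Veh against WT ran from −0.13 to −0.10 over the mice left out. The edgeR fit within flow cell A was not run for ACEi, which has 1 library there. No paired analysis was possible because each mouse has its own name and no label ties mice of different groups. Depth limits low genes such as Mtfr2 most.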
